A study of Mus musculus with 10 samples.

Results

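Expression of the p53 pathway was examined by RNA-seq in male mouse embryonic stem cells (mESCs), the cultured counterpart of the early embryo's pluripotent cells. The members were 32 genes, taken by name from the 25965 features of the table: Trp53, which encodes p53, with its regulators and its direct targets in arrest, apoptosis, DNA repair and metabolism. The study compared its own culture method, Keniry2022, with an established one, Mulas2019, on 2 C57/Bl6 lines in 2i medium with LIF, which holds mESCs in the naive state. Both lines had been derived under the study's own conditions, were divided at passage 0 (p0) and were then harvested at passages 10 and 20 (p10 and p20) of each method. Keniry2022 cells (New or Off in the labels) were kept in suspension and passaged daily. Mulas2019 cells (Old or On) were attached to gelatin, plated more sparsely in less medium and passaged at longer intervals, so p20 Keniry2022 and p10 Mulas2019 had spent the same number of days in culture. There were 5 groups (p0, p10 and p20 Keniry2022, p10 and p20 Mulas2019) of 2 libraries each. The 4 libraries of a method were 2 lines at 2 passages and not 4 derivations, and suspension, plating density, medium volume and passaging interval cannot be told apart.

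Trp53 encodes a transcription factor that is kept low in unstressed cells by Mdm2 and Mdm4. When DNA is damaged, or under other stress, p53 escapes this control and switches on genes that halt the cell cycle, repair DNA or kill the cell, and Mdm2 is itself a target, which closes a feedback loop. In mESCs, p53 is known for promoting differentiation and for limiting the survival of cells with damaged DNA. Most of its control is on the protein, which RNA-seq does not measure.

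p53 binds response elements made of a pair of decamers, each 10 bases long. To show what such elements look like in these genes, RefSeq promoter windows of 300 bases (GRCm38.p6, from 250 bases before to 50 bases after an annotated start) were matched by symbol for 24 of the 32 members, and no window was used for Trp53inp1, Pmaip1, Zmat3, Perp, Rrm2b, Xpc, Ddb2 and Tnfrsf10b. The decamer consensus is its own reverse complement, so 1 search covers both strands. A decamer match was in a window of 12 of the 24 members (50%), against 9.55% of all 27025 genes and in 35.1% of the members' 37 windows, against 8.36% of all 32851 windows. A pair of decamers at most 13 bases apart was found in 1 member, Cdkn1a, and in 0.0731% of all windows. A match is a description of the letters, not a bound site, and elements farther from the start lie outside these windows.

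The pair in Cdkn1a lies on the plus strand at chr17:29090906-29090937, 73 to 42 bases upstream of an annotated start, with 12 bases between the decamers. A window at another Cdkn1a start held no match. The 10 bases directly after the second decamer, tgacatgttc, miss the consensus only at their first base, so the search did not count them. Which of these decamers p53 uses as a pair was not tested. The decamers of Ccng1 (minus strand, chr11:40755452-40755481), Mdm2 (minus strand, chr10:117710925-117710954), Bax (minus strand, chr7:45467080-45467109) and Trp53 (plus strand, chr11:69580274-69580303) begin 185, 186, 201 and 75 bases upstream, and are shown with 10 bases on either side. They are examples, among the members with a decamer, from the pathway's arrest, feedback and apoptosis arms. Capitals mark the decamers, and sequences run 5′ to 3′ along the gene's strand.
Cdkn1a: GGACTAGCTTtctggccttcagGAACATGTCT
Ccng1: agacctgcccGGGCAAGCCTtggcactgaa
Mdm2: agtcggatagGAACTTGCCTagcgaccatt
Bax: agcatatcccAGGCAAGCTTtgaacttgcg
Trp53: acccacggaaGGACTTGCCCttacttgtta

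Library totals ranged from 24053996 to 30236823 reads. All 8 mESC markers checked (Pou5f1, Sox2, Nanog, Zfp42, Esrrb, Klf4, Tfcp2l1 and Tbx3) passed the filter on low values, with a summed level, in RPKM (reads scaled to library total and exon length), of 1483 and 1661 at p0, 1387 to 1531 under Keniry2022 and 1278 to 1308 under Mulas2019. The sum thus differed between the methods without overlap, and its part in the differences of the members was not tested. None of 7 fibroblast markers passed, their sum was 0.331 to 1.01 RPKM, and Dcn and Postn had 0 reads throughout. None of 7 primitive endoderm markers passed either (summed 1.69 to 2.61 RPKM), and of 6 trophoblast markers only Eomes did, with a summed level of 2.19 to 3.32 RPKM outside p20 Mulas2019 and 3.97 to 4.12 RPKM there. The p0 libraries stood apart from each other: the SD of the replicate difference over tested features was 0.61 on the log2 scale at p0 and 0.23 to 0.26 in the other groups. Reads of Y-linked genes were few (13 to 132) in replicate 1 and many (4578 to 8140) in replicate 2 of every group except p20 Keniry2022, where the order was reversed (6659 in replicate 1 and 48 in replicate 2). The study reports, from DNA-seq of these cells, that a line had lost its Y chromosome already while it was derived. The comparisons of groups do not use the replicate numbers.

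Of the 32 members, 31 passed the filter (a log2 value above 0 in at least 50% of the libraries). The exception was Fas, a death receptor, with 4 to 12 reads per library and log2 RPKM between -3.67 and -2.02, which was not tested. The most abundant member was Bax, with a mean of 248 RPKM over the 10 libraries, followed by Ei24 (143 RPKM) and Ccng1 (108 RPKM). Trp53 had 62.1 RPKM and Cdkn1a 61.0 RPKM, and the lowest tested member was Trp73 with 1.84 RPKM. Bulk RNA cannot tell fewer expressing cells from less RNA per cell.

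**Figure D1:**
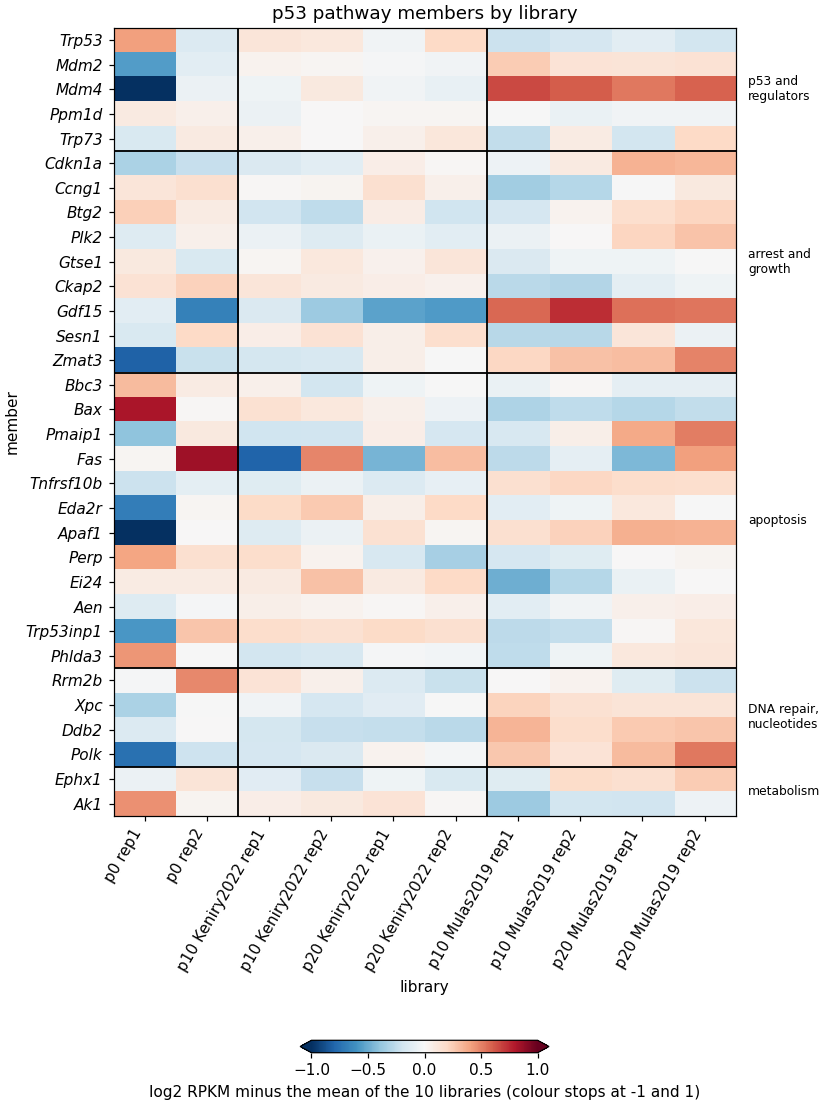
Level of each of the 32 members (rows, grouped by role) in each of the 10 libraries (columns), as log2 RPKM minus the member's mean over the libraries. Red is above and blue below the mean, and colours stop at -1 and 1. Mdm4, Gdf15, Zmat3, Ddb2 and Polk are redder in all 4 Mulas2019 libraries than in the Keniry2022 libraries, p0 replicate 1 departs from p0 replicate 2 in many rows, and the colours of Fas rest on 4 to 12 reads.

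The methods differed at most of these genes, in both directions. With p10 and p20 pooled, 20 of the 31 tested members had an adjusted p under 0.05: 9 were higher under Keniry2022 (29% of members, against 25.9% of all 11654 features tested) and 11 were lower (35.5%, against 25.5%). At p10, 11 were higher (35.5%, against 24.8% of all features) and 10 lower (32.3%, against 23.5%). At p20, 3 were higher (9.68%, against 18.6%) and 13 were lower (41.9%, against 18.2%). The median difference, Keniry2022 minus Mulas2019, was -0.02 at p10 and -0.13 at p20 for the members, and 0.00 and -0.01 for all features. So the members were split between the directions at p10, and the calls were mostly lower under Keniry2022 at p20.

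Of the 12 members that were called the same way at both passages, 9 were lower under Keniry2022, namely Mdm2, Mdm4, Cdkn1a, Gdf15, Zmat3, Tnfrsf10b, Apaf1, Ddb2 and Polk. The other 3, Trp53, Bax and Ckap2, were higher. The p20 call of Ckap2 and the p10 call of Cdkn1a were lost in 13 and 10 of 19 alternatives. A further 8 members were called at p10 and not at p20, of which 7 were higher (Ccng1, Gtse1, Sesn1, Eda2r, Ei24, Trp53inp1 and Ak1) and 1 lower (Xpc). Plk2, Pmaip1 and Ephx1 were called at p20 and not at p10, all lower, and Perp was called in opposite directions. How all features divide in these ways was not counted, so nothing particular to the members is read from these splits. The 7 tested members called in none of the pooled, p10 and p20 comparisons were Ppm1d, Trp73, Btg2, Bbc3, Aen, Phlda3 and Rrm2b. When the 2 p0 libraries, which stood farther apart, were added to the model, 5 members were called at p10, 2 at p20 and 7 with the passages pooled. The calls fell over all features as well, to 986, 249 and 2225 of 11561.

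**Figure D2:**
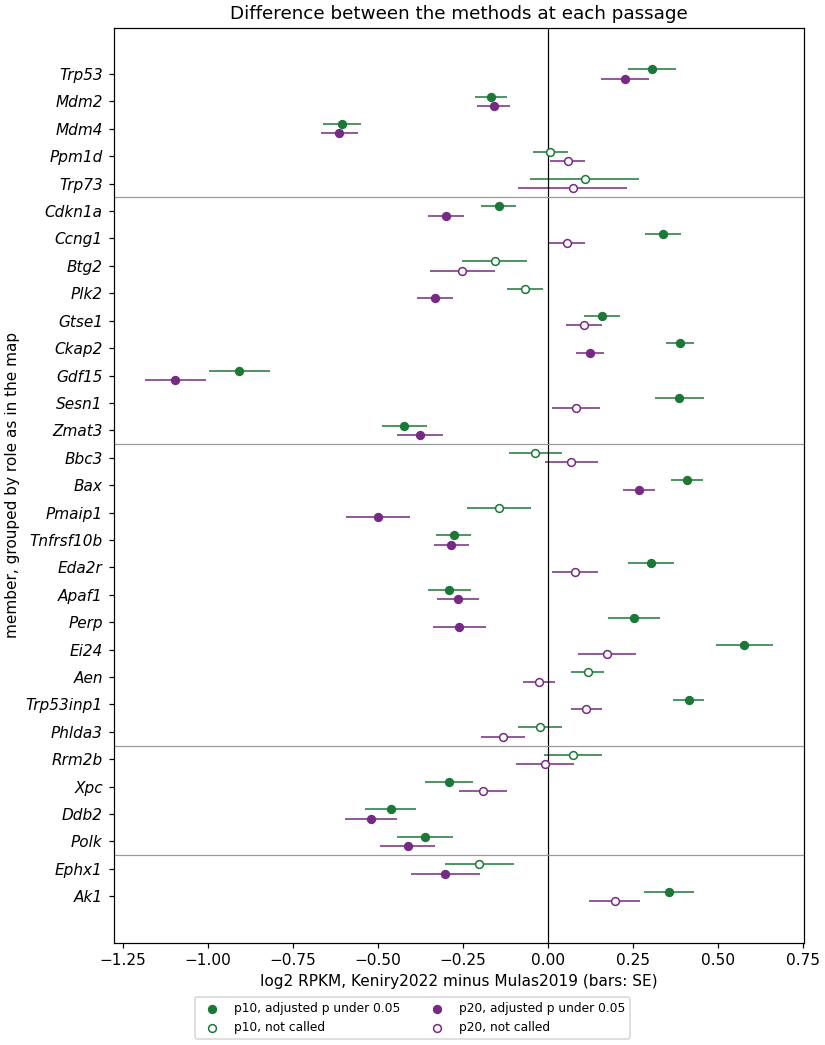
Difference between the methods (log2 RPKM, Keniry2022 minus Mulas2019) for each of the 31 tested members at p10 (green) and p20 (purple). Points are fitted differences, bars are their SE and filled points have an adjusted p under 0.05. At p10, 11 filled points lie right of zero and 10 left of it, and at p20 the numbers are 3 and 13.

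In what follows, the values of a method are log2 RPKM in the order p10 replicate 1, p10 replicate 2, p20 replicate 1 and p20 replicate 2. Differences are Keniry2022 minus Mulas2019 on the same log2 scale, and the SE of a difference is the same at p10 and p20.

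Among p53 and its feedback regulators, Trp53 was higher and both of its inhibitors were lower under Keniry2022. Trp53 (chr11:69580359-69591873, mm10, as are all gene positions here) stood at 6.07, 6.05, 5.91 and 6.14 under Keniry2022 and at 5.73, 5.78, 5.84 and 5.76 under Mulas2019. Every Keniry2022 library was above every Mulas2019 library, with a difference of 0.31 at p10 and 0.23 at p20 (SE 0.07, adjusted p = 0.00862 and 0.0384). Under quantile normalisation the differences were 0.18 and 0.09, and 0.13 pooled, and none of the 3 was called. Mdm4 (chr1:132989845-133025366), which binds p53 and blocks its activity, stood at 4.72, 4.86, 4.74 and 4.69 under Keniry2022 and at 5.43, 5.37, 5.30 and 5.35 under Mulas2019. It was lower under Keniry2022 to the same extent at both passages, with differences of -0.61 and -0.61 (SE 0.06, adjusted p = 0.000201 and 0.00053), and the groups were far from overlapping. Mdm2 (chr10:117688888-117710758), the ubiquitin ligase that marks p53 for degradation, was at 5.09, 5.08, 5.05 and 5.02 under Keniry2022 and at 5.31, 5.20, 5.18 and 5.20 under Mulas2019. The shift was small but the groups did not overlap, with -0.17 at p10 and -0.16 at p20 (SE 0.05, adjusted p = 0.0196 and 0.0309). Ppm1d, a phosphatase that switches the p53 response off again, lay between 3.34 and 3.49 in all 10 libraries and differed by 0.01 and 0.06 (adjusted p = 0.927 and 0.417). Trp73, a relative of Trp53, lay between 0.63 and 1.07 and differed by 0.11 and 0.07 (adjusted p = 0.609 and 0.75). Its exons overlap those of Gm13116 on the opposite strand, and the strand setting of the counting is not given in the sources used here.

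Among the 9 genes of cell cycle arrest and growth, 4 were higher and 3 lower at p10, where 24.8% and 23.5% of all features were, and 1 was higher and 4 lower at p20, against 18.6% and 18.2%. Gdf15 (chr8:70629393-70632456), a secreted stress hormone, had the largest difference of all members. It stood at 2.16, 1.95, 1.77 and 1.74 under Keniry2022 and at 2.88, 3.04, 2.85 and 2.84 under Mulas2019. Pooled over the passages it was 2.00-fold lower under Keniry2022 (adjusted p = 5.79e-05), with differences of -0.91 at p10 and -1.10 at p20 (SE 0.09, adjusted p = 0.00024 and 0.000437). Zmat3 (chr3:32334796-32365678), a zinc finger RNA-binding protein that restrains growth, was at 4.20, 4.22, 4.43 and 4.37 under Keniry2022 and at 4.59, 4.67, 4.69 and 4.88 under Mulas2019. It too was lower in every Keniry2022 library, with differences of -0.42 at p10 and -0.38 at p20 (SE 0.07, adjusted p = 0.00156 and 0.00433). Ckap2, a spindle protein, went the other way, with 5.69, 5.66, 5.63 and 5.61 against 5.30, 5.27, 5.47 and 5.52. Its difference was 0.39 at p10 and 0.12 at p20 (SE 0.04, adjusted p = 0.000282 and 0.0425). The p20 difference was 0.02 under quantile normalisation and was not called with the replicate number as a block.

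Cdkn1a (chr17:29090979-29100722), the cyclin-dependent kinase inhibitor through which p53 halts the cell cycle, stood at 5.77, 5.81, 5.98 and 5.93 under Keniry2022 and at 5.87, 6.01, 6.26 and 6.25 under Mulas2019. It was lower under Keniry2022, with -0.15 at p10 and -0.30 at p20 (SE 0.05, adjusted p = 0.0477 and 0.00407). The p10 call was lost in 10 of 19 alternatives, with values between -0.27 and -0.07. With the replicate block its adjusted p was 0.0576. It was kept when the p20 Keniry2022 numbers were exchanged in that block, an alternative chosen after seeing the data. At each passage the Mulas2019 pair lay above the Keniry2022 pair, and the p20 Mulas2019 pair above all other libraries. Plk2, a polo-like kinase, was at 3.87, 3.81, 3.87 and 3.83 under Keniry2022 and at 3.87, 3.94, 4.15 and 4.22 under Mulas2019. The methods differed by -0.07 at p10 and -0.33 at p20 (SE 0.05, adjusted p = 0.323 and 0.00301), and the p20 Mulas2019 pair stood above all other libraries. Ccng1 (chr11:40748552-40755311), a cyclin induced by p53, was the reverse case, with 6.76, 6.77, 6.91 and 6.79 against 6.40, 6.46, 6.74 and 6.84. It was higher under Keniry2022 by 0.34 at p10 (SE 0.05, adjusted p = 0.00144), where both Mulas2019 libraries were low, and differed by 0.05 at p20 (adjusted p = 0.441). Sesn1, a stress protein that restrains growth signalling, was at 3.78, 3.86, 3.77 and 3.89 against 3.43, 3.44, 3.83 and 3.66. The difference was 0.39 at p10 and 0.08 at p20 (SE 0.07, adjusted p = 0.003 and 0.393). Gtse1, which holds p53 out of the nucleus, was at 5.92, 6.01, 5.94 and 6.03 against 5.76, 5.86, 5.86 and 5.90. It was higher by 0.16 at p10 and differed by 0.11 at p20 (SE 0.05, adjusted p = 0.0364 and 0.15), but its pooled difference of 0.13 turned to -0.0055 under quantile normalisation. Btg2, an antiproliferative protein, lay between 3.71 and 4.21 in all 10 libraries and differed by -0.16 and -0.25 (adjusted p = 0.203 and 0.0674).

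**Figure D3:**
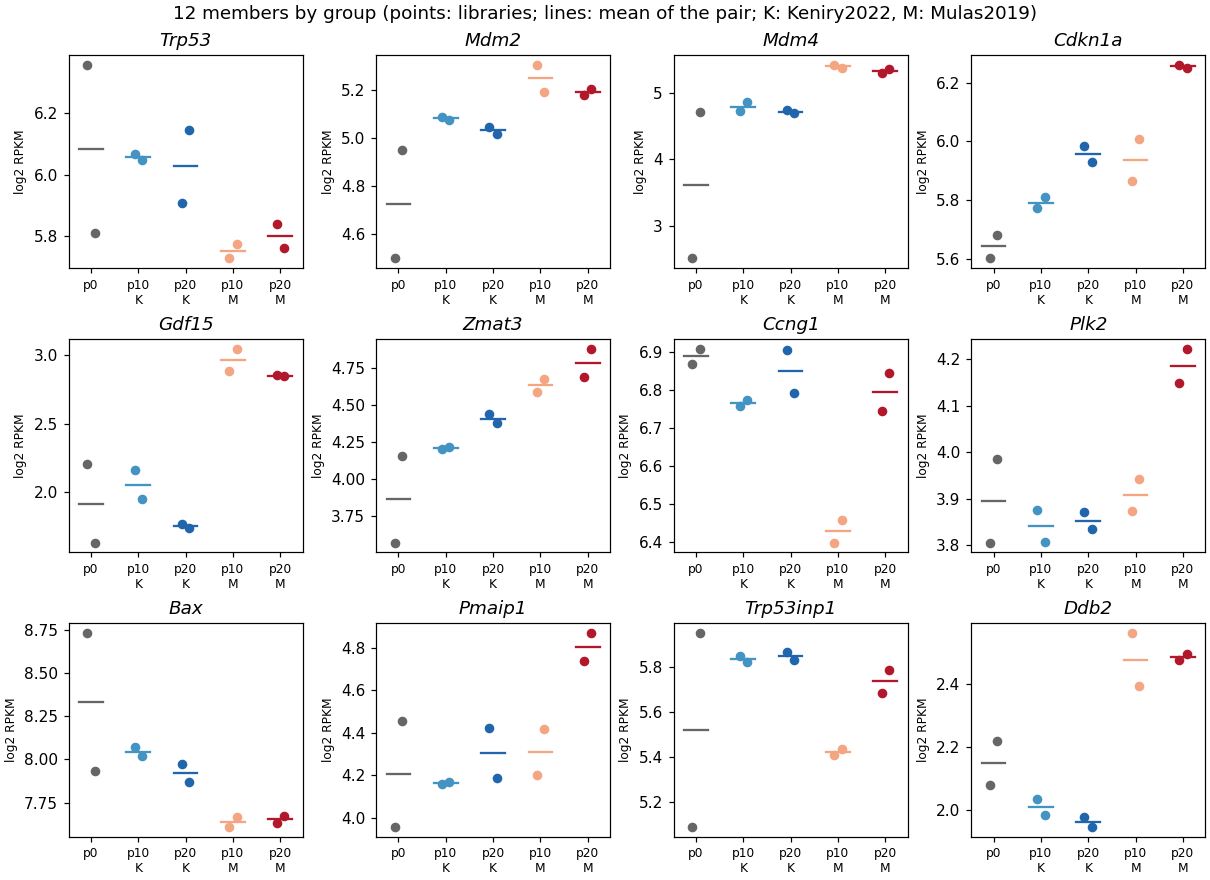
Levels of 12 members in log2 RPKM (vertical axes, each with its own range) in the 5 groups, where K is Keniry2022 and M is Mulas2019. Each point is a library and each line the mean of the pair. Gdf15, Mdm4, Zmat3 and Ddb2 are higher in both Mulas2019 groups than in both Keniry2022 groups, while Cdkn1a (6.26 and 6.25), Plk2 (4.15 and 4.22) and Pmaip1 (4.74 and 4.87) are highest in the p20 Mulas2019 pair.

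The apoptosis genes were split. Bax (chr7:45461695-45466898), the channel former of the mitochondrial outer membrane, was higher under Keniry2022, at 8.07, 8.02, 7.97 and 7.87 against 7.61, 7.66, 7.63 and 7.67. No libraries overlapped, and the difference was 0.41 at p10 and 0.27 at p20 (SE 0.05, adjusted p = 0.000422 and 0.00413). Apaf1, the scaffold on which caspases are activated downstream of Bax, was lower, at 3.11, 3.18, 3.40 and 3.26 against 3.41, 3.47, 3.60 and 3.59. Its difference was -0.29 at p10 and -0.26 at p20 (SE 0.06, adjusted p = 0.006 and 0.0128). Tnfrsf10b, a death receptor, was lower, with -0.28 at each passage (SE 0.05, adjusted p = 0.00298 and 0.00449), with 3.42, 3.48, 3.41 and 3.46 against 3.71, 3.75, 3.72 and 3.71. It varied little within a method. Eda2r, another receptor of that family, was called at p10, with 3.37, 3.44, 3.24 and 3.38 against 3.08, 3.13, 3.28 and 3.18. The difference was 0.30 at p10 and 0.08 at p20 (SE 0.07, adjusted p = 0.00724 and 0.393), and whether these 2 values differ was not shown by the test of method by passage (adjusted p = 0.311).

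Pmaip1, which encodes the BH3-only protein Noxa and opposes Mcl1, was at 4.16, 4.17, 4.42 and 4.19 under Keniry2022 and at 4.20, 4.42, 4.74 and 4.87 under Mulas2019. It differed by -0.14 at p10 and -0.50 at p20 (SE 0.09, adjusted p = 0.234 and 0.00536), the p20 Mulas2019 pair being above all other libraries. Bbc3, which encodes the related protein Puma, lay between 3.21 and 3.71 in the 10 libraries and differed by -0.04 and 0.07 (adjusted p = 0.71 and 0.522). Perp, a desmosome protein induced by p53, stood at 3.27, 3.13, 2.94 and 2.76 under Keniry2022 and at 2.93, 2.97, 3.10 and 3.12 under Mulas2019. It was higher at p10, by 0.25, and lower at p20, with -0.26 (SE 0.08, adjusted p = 0.0254 and 0.0296), and no pair overlapped with the pair of the other method at either passage. The change of the difference, -0.51 (SE 0.11), had an adjusted p of 0.108. Ei24, an endoplasmic reticulum protein, was at 7.23, 7.43, 7.23 and 7.34 against 6.65, 6.86, 7.07 and 7.15, higher by 0.58 at p10 (SE 0.08, adjusted p = 0.00112) with a difference of 0.17 at p20 (adjusted p = 0.14). Trp53inp1, a nuclear protein that assists p53, was at 5.85, 5.82, 5.86 and 5.83 against 5.41, 5.44, 5.68 and 5.78. The Keniry2022 libraries were almost level and the Mulas2019 libraries lower, with 0.41 at p10 and 0.11 at p20 (SE 0.05, adjusted p = 0.000369 and 0.0864). Aen, an apoptosis-enhancing nuclease, lay between 3.90 and 4.09, and Phlda3, which restrains Akt, between 5.07 and 5.77, and neither was called.

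Of the 4 genes of DNA repair and nucleotide supply, 3 were lower under Keniry2022 at p10 (23.5% of all features were) and 2 at p20 (18.2%), and none was higher at either passage. Ddb2 (chr2:91211572-91236982), which recognises ultraviolet damage, stood at 2.04, 1.99, 1.98 and 1.95 under Keniry2022 and at 2.56, 2.39, 2.47 and 2.49 under Mulas2019. It was lower in every Keniry2022 library, with -0.46 at p10 and -0.52 at p20 (SE 0.08, adjusted p = 0.00178 and 0.00205). Its exons overlap those of Acp2 on the opposite strand, and reads of the pair cannot be told apart without strand. Polk, a translesion DNA polymerase whose exons overlap Gm17622 on the opposite strand, was at 2.49, 2.51, 2.69 and 2.64 against 2.93, 2.79, 2.98 and 3.18. The difference was -0.36 at p10 and -0.41 at p20 (SE 0.08, adjusted p = 0.00735 and 0.00644), with no overlap. Xpc, the first sensor of nucleotide excision repair, was at 2.57, 2.44, 2.49 and 2.60 against 2.83, 2.76, 2.73 and 2.74. It was lower at p10, with -0.29 (SE 0.07, adjusted p = 0.0101), and differed by -0.19 at p20 (adjusted p = 0.0652). Rrm2b, the ribonucleotide reductase subunit induced by p53, lay between 1.41 and 2.11 and differed by 0.07 and -0.01 (adjusted p = 0.504 and 0.936).

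Both metabolism genes were called in the pooled comparison, in opposite directions. Ak1, an adenylate kinase, was at 5.47, 5.49, 5.53 and 5.41 under Keniry2022 and at 5.03, 5.21, 5.20 and 5.35 under Mulas2019. The pooled difference was 0.28 (SE 0.06, adjusted p = 0.00377), with 0.36 at p10 and 0.20 at p20 (adjusted p = 0.00518 and 0.0692). Ephx1, an epoxide hydrolase of detoxification, was at 2.76, 2.64, 2.83 and 2.72 against 2.75, 3.05, 3.03 and 3.12, and 1 Mulas2019 library lay within the Keniry2022 range. Its pooled difference was -0.25 (SE 0.08, adjusted p = 0.0236), with -0.20 at p10 and -0.30 at p20 (adjusted p = 0.131 and 0.0465).

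Matched in days of culture, p20 Keniry2022 against p10 Mulas2019, 17 of the 31 members were called (54.8%, against 43.4% of all features), 10 higher and 7 lower. Cdkn1a differed by 0.02 in this comparison (adjusted p = 0.796), Pmaip1 by -0.00 (adjusted p = 0.975) and Plk2 by -0.06 (adjusted p = 0.429), whereas at matched passage p20 all 3 had been lower under Keniry2022. For Apaf1 and Polk the values were -0.11 and -0.20 (adjusted p = 0.192 and 0.0846). Gdf15 (-1.21, adjusted p = 0.00027), Mdm4 (-0.69, adjusted p = 0.000314) and Ddb2 (-0.51, adjusted p = 0.00156) were lower here too, and Ei24 (0.53, adjusted p = 0.00206), Trp53inp1 (0.42, adjusted p = 0.000572) and Ccng1 (0.42, adjusted p = 0.000859) were higher. This comparison shares its libraries with those at p10 and p20.

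From p10 to p20 the called changes were all increases under Mulas2019. They were in 4 arrest and growth genes and 2 apoptosis genes, roles that hold 9 and 11 of the 31 tested members. Of the 31 members, 6 rose (19.4%, against 1.61% of all features) and none fell. Ccng1 rose from 6.40 and 6.46 to 6.74 and 6.84, a change of 0.37 (SE 0.05, adjusted p = 0.0319). Pmaip1 rose from 4.20 and 4.42 to 4.74 and 4.87, a change of 0.49 (SE 0.09, adjusted p = 0.0426). Cdkn1a, from 5.87 and 6.01 to 6.26 and 6.25, rose by 0.32 (SE 0.05, adjusted p = 0.0366), and Trp53inp1 by 0.31 (SE 0.05, adjusted p = 0.0322). In these genes both p20 libraries were above both p10 libraries. Plk2 rose by 0.28 (SE 0.05, adjusted p = 0.0426) and Ckap2 by 0.21 (SE 0.04, adjusted p = 0.0411). In Cdkn1a, Plk2 and Pmaip1 the p20 Mulas2019 pair was above every Keniry2022 library. In Trp53inp1 and Ckap2 that pair was below every Keniry2022 library, and in Ccng1 the ranges overlapped. The next members, not called, were Sesn1 (0.31, adjusted p = 0.0599), Ei24 (0.36, adjusted p = 0.0624) and Phlda3 (0.26, adjusted p = 0.068). Counted without regard to the test, 23 of the 31 members were higher at p20, and the median change was 0.15, against 0.01 for all features. None of the 5 regulators was called, among them Trp53 with 0.05 (adjusted p = 0.727) and Mdm2 with -0.06 (adjusted p = 0.514). All 6 calls lay close to the threshold. The count was 0 with no filter and with the p0 libraries in the model, and 9 with voom. Over all features, in either direction, 5, 0 and 641 were called in these runs, against 288 before. The members' calls were also lost without p10 Keniry2022 replicate 1 or 2, p10 Mulas2019 replicate 1, or p20 Mulas2019 replicate 1 or 2. In those fits the calls over all features fell too. The summed level of trophoblast markers was also highest in the p20 Mulas2019 pair, and its part in these changes was not tested.

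Under Keniry2022 no member was called between p10 and p20 by limma or by voom, with 0.0343% of all features called by limma. At an unadjusted p under 0.05 there were 8 of 31 members and 1475 of 11654 features. The 6 genes that rose under Mulas2019 changed by 0.08 (Ccng1), 0.14 (Pmaip1), 0.16 (Cdkn1a), 0.01 (Trp53inp1), 0.01 (Plk2) and -0.05 (Ckap2) under Keniry2022. Perp had the largest change, -0.35 (SE 0.08, adjusted p = 0.166), and 17 of the 31 members were higher at p20, with a median of 0.01.

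**Figure D4:**
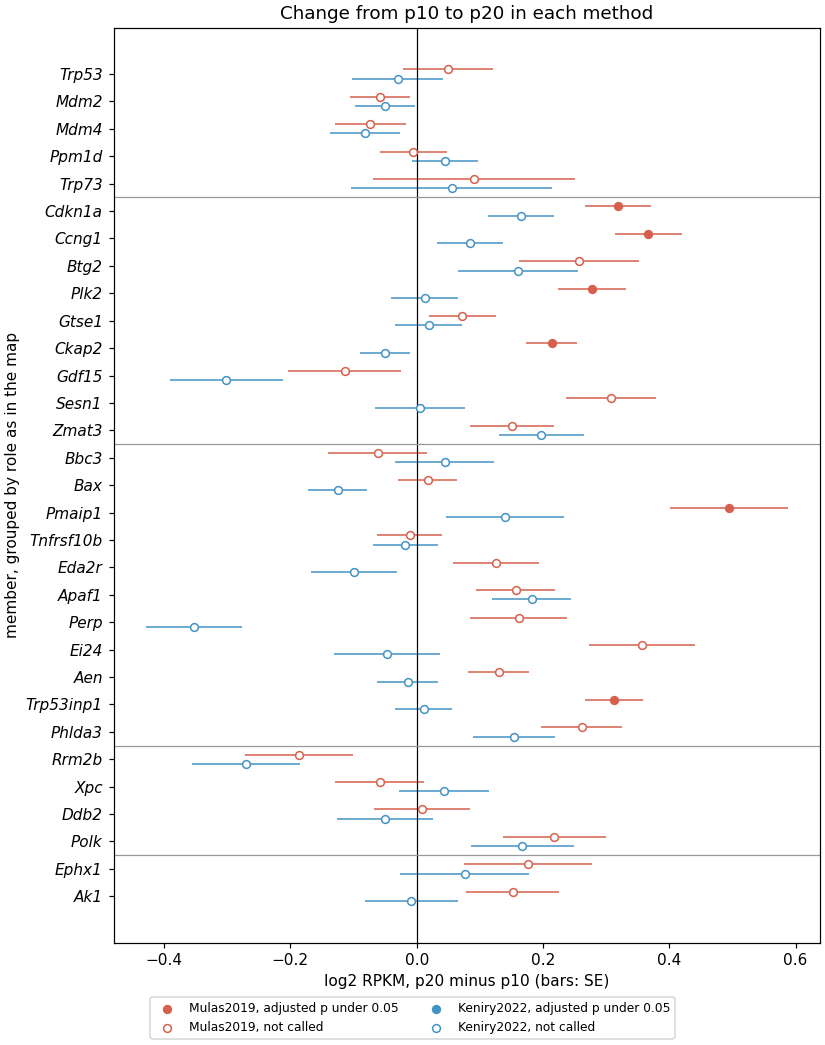
Change from p10 to p20 (log2 RPKM, p20 minus p10) of each of the 31 tested members under Mulas2019 (red) and Keniry2022 (blue). Points are fitted changes, bars are their SE and filled points have an adjusted p under 0.05. The 6 filled points are increases under Mulas2019 of 0.21 to 0.49.

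Whether the change with passage differed between the methods was tested directly. No member and 0% of all features had an adjusted p under 0.05 in limma, and voom called none of the members. At an unadjusted p under 0.05 there were 9 members and 1836 of 11654 features. All 9 members (Perp, Ei24, Pmaip1, Trp53inp1, Sesn1, Ccng1, Plk2, Ckap2 and Eda2r) had a negative value, that is, a difference between the methods (Keniry2022 minus Mulas2019) that was lower at p20 than at p10. The most negative were Perp (-0.51, adjusted p = 0.108), Ei24 (-0.40, adjusted p = 0.182) and Pmaip1 (-0.35, adjusted p = 0.256). Over the 31 members, 25 values were negative, with a median of -0.10 against -0.01 for all features. How many of the 1836 features, or of all features, had a negative value was not counted. These counts are therefore not read as particular to the members. The increases under Mulas2019 were thus not shown to differ from the changes under Keniry2022.

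Both methods were then compared with p0, using the mean of p10 and p20, and these comparisons share the p0 pair. Mulas2019 cells differed from p0 at 16 of the 31 members, 10 higher (32.3%, against 22% of all features) and 6 lower (19.4%, against 22%). The higher ones included Mdm4 (1.76), Gdf15 (0.99), Zmat3 (0.84), Apaf1 (0.81), Polk (0.79), Mdm2 (0.50) and Cdkn1a (0.46), with adjusted p between 0.00618 and 0.0329. Tnfrsf10b (0.33), Ddb2 (0.33) and Xpc (0.32) rose as well. The lower ones were Bax (-0.69), Ak1 (-0.44), Ckap2 (-0.36), Perp (-0.34), Ei24 (-0.29) and Ccng1 (-0.28). Keniry2022 cells had no called member in limma or voom, with 0.727% of all features called by limma, and 10 members and 4026 of 11561 features at an unadjusted p under 0.05. Gdf15 differed from p0 by -0.01 under Keniry2022 (adjusted p = 0.956), Tnfrsf10b by 0.05 (adjusted p = 0.58) and Cdkn1a by 0.23 (adjusted p = 0.089).

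These values rest on 2 p0 libraries that were unlike each other at several members. Mdm4 stood at 2.50 in p0 replicate 1 and at 4.71 in replicate 2, Apaf1 at 2.16 and 3.25, Trp53inp1 at 5.09 and 5.95, and Bax at 8.73 and 7.93. In Mdm4 and Apaf1, replicate 2 was near the Keniry2022 libraries and replicate 1 below all others. The p0 difference, replicate 1 minus replicate 2, ran against exon length, with a Spearman rho of -0.70 over the 31 members and -0.58 over the 11654 features, which are genes of 1 pair of libraries and not replicates. For the pooled difference between the methods the same rho was -0.01 over the members and -0.28 over all features. The calls against p0 depended on which p0 library was left out, over the members and over all features alike. For both methods, more were called without p0 replicate 2 than without p0 replicate 1. Leaving out any Mulas2019 library lowered the calls between Mulas2019 and p0, again over the members and over all features. Over all features they fell from 5093 to between 2328 and 2841. Leaving out any Keniry2022 library lowered them as well, to between 3648 and 3838. With library quality weights, 0 members and 0 of all features were called against p0. Cdkn1a (5.60 and 5.68 at p0) and Ccng1 (6.87 and 6.91) had close p0 values.

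Genes around the members were counted in the pooled comparison, in which 25.9% of all features were higher and 25.5% lower under Keniry2022. The lists are small, and nothing particular to them is read from these counts. Of 5 upstream kinases, which signal damage to p53, 2 were higher under Keniry2022, 1 was lower and 2 were not called. The one with the smallest p was Chek1, a checkpoint kinase, with a mean of 4.89 ± 0.05 (SD, n = 4) in the Keniry2022 libraries and 4.50 ± 0.08 in the Mulas2019 libraries. The methods differed by 0.39 (SE 0.05, adjusted p = 0.000203), and Atm (0.23) and Prkdc (-0.21) were the other called kinases. Of 15 tested regulators and cofactors of p53 (16 listed), 3 were higher and 3 lower, led by Sirt1, a deacetylase that acts on p53, with a difference of 0.34 (SE 0.06, adjusted p = 0.000853). Of 21 tested further direct targets (26 listed), 4 were higher and 9 lower, with a median difference of -0.18. Cyfip2, a regulator of actin, led them with 0.15, 0.17, 0.14 and 0.18 under Keniry2022 and 1.33, 1.25, 1.31 and 1.17 under Mulas2019, which makes -1.10 (SE 0.08, adjusted p = 3.56e-05). Of 10 tested genes of the general apoptosis machinery (12 listed), 2 were higher and 3 lower, led by Bcl2l11, which encodes the BH3-only protein Bim, with -0.50 (SE 0.07, adjusted p = 0.000338). From p10 to p20 under Mulas2019, none of the 51 tested genes of these 4 lists rose, where 1.61% of all features did. In that comparison 1 regulator and 1 gene of the apoptosis machinery fell. Over all 11654 features 288 were called, of which 188 rose and the rest fell.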

How the data were processed

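Male mESC libraries (10, in 5 groups of 2, taken from the labels) were sequenced as 75-base single-end reads. Per the study the reads were trimmed with trim_galore, aligned to mm10 with HISAT2 and quantified in SeqMonk, whereas TopHat2 2.0.12 and bcl2fastq stand in the processing notes of the submitters. Of annotation and strand handling nothing was found (not given in the sources used here). As deposited by the authors, the table holds 1 log2 value per feature and library, and is named log CPM, but features without reads sit at floors set by their length, so the values are log2 RPKM with 0 reads entered as 0.9 reads. Library totals and exon lengths were worked out from these floors and steps, and 100% of values came out as whole reads (tolerance 0.1 reads). No value column was left unused. Reads are not independent molecules, and p-values measure only the spread between these libraries.

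The log2 values were tested with limma 3.58.1 (R 4.3.3; moderated test with intensity trend, two-sided, Benjamini-Hochberg over all features tested, threshold 0.05) on features above 0 in at least 50% of the libraries fitted. The pooled comparison used 4 libraries per method. The comparisons at p10, at p20, matched in days, between passages and of method by passage used 1 model of those 8 libraries in 4 groups. Those against p0 used all 10 libraries. The authors used edgeR and voom on counts. Here the deposited logarithms were tested with limma trend, and voom on the recovered reads was run as an alternative. The script was tested on simulated data.

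The members, roles and lists were chosen with earlier results of these data known, and no p was adjusted over the list alone. Every member is named. Members called between the methods are given with their libraries, others by range, and of each further list the called gene with the smallest p.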

Additional observations from a re-analysis of the deposited data

Results flagged for a closer look

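Within each method, the 4 libraries of each member were searched for 1 that stood apart (Dixon's criterion). Of 64 groups, 2 were singled out, and chance alone singles out about 1 in 20. Mdm2 was 5.31 log2 RPKM in p10 Mulas2019 replicate 1, and the nearest of the other Mulas2019 libraries was at 5.20. Pmaip1 was 4.42 log2 RPKM in p20 Keniry2022 replicate 1, and the nearest of the other Keniry2022 libraries was at 4.19.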

How the results depend on the processing

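Of the member differences called between the methods, 1 turned its direction: the pooled difference of Gtse1 was -0.0055 under quantile normalisation (adjusted p = 0.931). With all 10 libraries in 1 model, the members called were 7 pooled, 5 at p10, 2 at p20, 5 matched in days and 0 from p10 to p20 under Mulas2019. Over all features the calls were 2225, 986, 249, 743 and 0 in that order, the p0 pair adding its spread. With no filter, which adds features to the adjustment, 0 members and 5 of all features were called from p10 to p20 under Mulas2019. With library quality weights, 0 members and 0 of all features were called between Mulas2019 and p0. The stricter filter, a pseudocount of 1, median centring and quantile normalisation kept every count of members within 1.5 times. Voom on recovered reads and a correction for length and GC content did so too. Passage as a term in the pooled fit also did, with 24 members and 6395 of all features called. Method by passage and Keniry2022 p20 against p10 had 0 members called throughout, though over all features voom called 84 for method by passage. Over all features, however, the stricter filter (log2 above 2) put 60.7% of the calls at p20 on the higher side, against 50.5% before, and the model of 10 libraries 28.5%. Gdf15 and Ddb2 were called under every alternative run, pooled, at p10 and at p20. Both passed the stricter filter through their Mulas2019 libraries, as most of their Keniry2022 values lay below log2 2. Their calls under that filter therefore add no support.

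Leaving out 1 library at a time gave 15 to 22 members pooled, 16 to 20 at p10, 10 to 17 at p20, 13 to 17 matched in days, 0 to 6 from p10 to p20 under Mulas2019, 0 to 20 between Keniry2022 and p0, and 7 to 24 between Mulas2019 and p0. A library left alone in its group was taken to vary like the others. At p20 the count of 10 came without p20 Keniry2022 replicate 2 or p20 Mulas2019 replicate 1. Calls that rested on small margins were Cdkn1a at p10 (lost in 10 of 19 alternatives), Ckap2 at p20 (13 of 19), Ephx1 at p20 (11 of 19), Trp53 at p20 (9 of 19), Mdm2 at p20 (8 of 19), Plk2 pooled (10 of 20) and Sesn1 pooled (9 of 20).

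Same-numbered libraries deviated together among p10 Keniry2022, p10 Mulas2019 and p20 Mulas2019 (r across features 0.51 to 0.63) and against p20 Keniry2022 (-0.43 to -0.70), so the numbers do not pair all groups. With the replicate number as a block, 18 members were called pooled, 20 at p10, 15 at p20, 17 matched in days, 4 from p10 to p20 under Mulas2019 and 15 between Mulas2019 and p0. Over all features the calls were 5749, 5533, 4110, 4940, 280 and 4868. With the numbers of p20 Keniry2022 exchanged in that block, an alternative chosen after seeing the data, the members called were 19, 21, 17, 17, 7 and 16. Over all features the calls were then 5780, 5675, 4378, 5101, 493 and 4873.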

Other observations

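The 24 members with a promoter window can be divided by whether a p53 decamer was matched in it, a division made after the values were seen and not tested. Of the 12 members with a decamer, 6 were higher under Keniry2022 in the pooled comparison (Trp53, Gtse1, Ckap2, Sesn1, Bax and Ei24), 2 were lower (Mdm2 and Polk) and 4 were not called, with a median difference of 0.16. Of the 11 tested members without one, 2 were higher (Eda2r and Ak1), 5 were lower (Mdm4, Plk2, Gdf15, Apaf1 and Ephx1) and 4 were not called, with a median of -0.20. Over all features, 25.9% were higher and 25.5% lower. All features were not divided by decamer, and members without a window are left out. No link between a decamer and the direction is therefore read from these counts. At p20 the counts were 3 higher and 3 lower with a decamer, and 0 higher and 5 lower without, against 18.6% and 18.2% of all features. From p10 to p20 under Mulas2019, 3 of the 12 members with a decamer and 1 of the 11 without were called, all higher, against 1.61% of all features. The medians of both sets were above 0, at 0.17 and 0.15, against 0.01 for all features.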
